A study of Mus musculus with 28 samples.

Results

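The genes described here are 9 genes of rod phototransduction and rod identity, out of 35973 genes with a usable symbol in a table of normalized counts from mouse retina. The members are the entries of that table that carry these 9 gene symbols. Of the 9, 7 encode proteins of the light response of rods (Gnat1, Gngt1, Pde6a, Pde6b, Pde6g, Cnga1 and Sag) and 2 encode the transcription factors that define the rod (Nrl and Nr2e3). All 9 passed the filter on low values, so none is missing from the tests.

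In rods, light activates the visual pigment of the outer segment, the pigment activates the G protein transducin, and transducin relieves the inhibition of the phosphodiesterase PDE6. PDE6 then lowers cyclic GMP, cyclic nucleotide-gated channels close, and the cell hyperpolarises until arrestin binds the pigment and ends the signal. Nrl, a basic leucine zipper factor, sets the rod fate and acts upstream of the nuclear receptor Nr2e3, which represses cone genes in rods. Rods are the most abundant cells of the mouse retina, and unlike retinal ganglion cells they send no axon into the optic nerve.

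The series belongs to work on chemical modulators of astrocyte reactivity and profiled polyadenylated RNA from whole mouse retina. In every mouse the right optic nerve had been crushed (ONC), which injures the axons of retinal ganglion cells, while the left nerve was not touched (CTRL). Mice were injected intraperitoneally each day for 7 days with RGFP966 at 10 mg/kg, which blocks HDAC3 (a histone deacetylase), or with vehicle, and the retinas were taken on day 7 after the crush. The libraries used were 7 RGFP966 ONC and 7 RGFP966 CTRL retinas from 7 mice (3 females, 4 males), and 6 vehicle ONC and 6 vehicle CTRL retinas from 6 mice (2 females, 4 males). The sources used here give no age or strain. Crush was always on the right, so side and crush cannot be told apart. For RGFP966 CTRL female A a free-text label mentions crush while the title and the condition label say uncrushed, and the last 2 were followed.

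Normalized counts summed to between 17671650 and 21852187 per library, and 19135 to 20170 genes were above 0. The 9 rod genes together took 2.94 to 4.37% of a library's total (median 3.52%), so the rod label held in each library. The highest total and the highest rod share were those of the uncrushed retina of vehicle male D, which had the highest value of all 26 libraries for each of the 9 genes. Its 9 genes summed to 955606 normalized counts, while the sums in all vehicle CTRL retinas had a median of 698109. Results that rest on this mouse are therefore given with and without it. Markers of other cells also moved with the crush. Of 8 ganglion cell markers 7 fell after crush in RGFP966 mice and 6 in vehicle mice, and of 7 microglia markers 6 rose in each. Of all 15773 genes tested, 1.33% fell and 3.34% rose in RGFP966 mice, and 1.65% and 3.69% in vehicle mice. The part of these markers in the rod results was not tested.

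In mm10, Gnat1 (ENSMUSG00000034837.12) lies on the minus strand of chromosome 9 at 107674474 to 107679712, and Nr2e3 (ENSMUSG00000032292.8) on the same strand and chromosome at 59942771 to 59960659. Gngt1 (ENSMUSG00000029663.10) lies on the plus strand of chromosome 6 at 3993792 to 3997436. Pde6b (ENSMUSG00000029491.7) and Cnga1 (ENSMUSG00000067220.12) share chromosome 5, at 108388391 to 108432397 on the plus strand and 72603696 to 72644275 on the minus strand. Pde6a (ENSMUSG00000024575.16) is on the plus strand of chromosome 18 at 61220315 to 61289924, and Pde6g (ENSMUSG00000025386.2) on the minus strand of chromosome 11 at 120447605 to 120453500. Sag (ENSMUSG00000056055.13) is on the plus strand of chromosome 1 at 87803680 to 87845158, and Nrl (ENSMUSG00000040632.16) on the minus strand of chromosome 14 at 55518978 to 55524981. In the GENCODE annotation no exon of another gene overlapped those of 8 of them, and 61 bases of Nr2e3 exons were shared with Gm15507 on the same strand.

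Levels can be compared between genes only per length. Per kilobase of merged exons, Gnat1 was the highest of the 9, with 102863 ± 15401 normalized counts per kilobase over the 26 libraries (SD). Pde6g followed with 16485 ± 2611 normalized counts per kilobase, then Pde6a with 13547 ± 2013. Pde6b (10648 ± 1309) and Sag (10498 ± 1027) lay within their spread of each other. Nrl stood at 7750.0 ± 1292, Gngt1 at 4928 ± 748, Nr2e3 at 4012 ± 379 and Cnga1 at 3137 ± 359 normalized counts per kilobase. The order below Gnat1 depended on the length: per kilobase of the longest transcript Sag came directly after Gnat1, at 19775 ± 1935, and Nr2e3 was lowest, at 5032 ± 475. The transducin alpha subunit was thus the most abundant of the 9 under both lengths.

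The comparison of crushed with uncrushed retinas asks what an injury to ganglion cell axons leaves of the transcripts of a cell whose processes lie outside the nerve. On the deposited scale 2 of the 9 fell past an adjusted p of 0.05 in RGFP966 mice (Pde6g and Nrl), and in vehicle mice 5 of the 9 did (Pde6g, Pde6b, Nrl, Gngt1 and Cnga1). None rose. Of all 15773 genes tested, 1.33% fell in RGFP966 mice and 1.65% in vehicle mice. The median log2 change of the 9 genes was -0.22 in RGFP966 mice and -0.30 in vehicle mice, against -0.01 for all genes in both, but under quantile normalization the medians of the 9 were 0.01 in RGFP966 mice and -0.02 in vehicle mice, and none of the 9 passed. Gnat1 and Pde6a then had positive changes in RGFP966 mice (0.04 and 0.08) and in vehicle mice (0.05 and 0.10), as did Pde6b in RGFP966 mice (0.01). That scaling gives every library the same set of values, and the 9 genes rank between 3 and 112 by mean. It can thus remove a change shared by the highest genes, so it cannot decide whether they fell. A fit to vehicle libraries alone passed none of the 5 (adjusted p from 0.0534 for Pde6g to 0.157 for Cnga1, limma), with the same log2 changes. The matching fit to RGFP966 libraries alone ended no call and added Gngt1 (adjusted p = 0.037, limma), also with the same log2 change. With the mouse as a block, Pde6g passed in RGFP966 mice and Pde6g, Pde6b and Gngt1 in vehicle mice, 1 and 3 of the 9. The arrestin gene Sag and the receptor Nr2e3 had the changes nearest to 0 on the deposited scale. In bulk retina, fewer rods and less of an RNA per rod cannot be told apart.

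**Figure D1:**
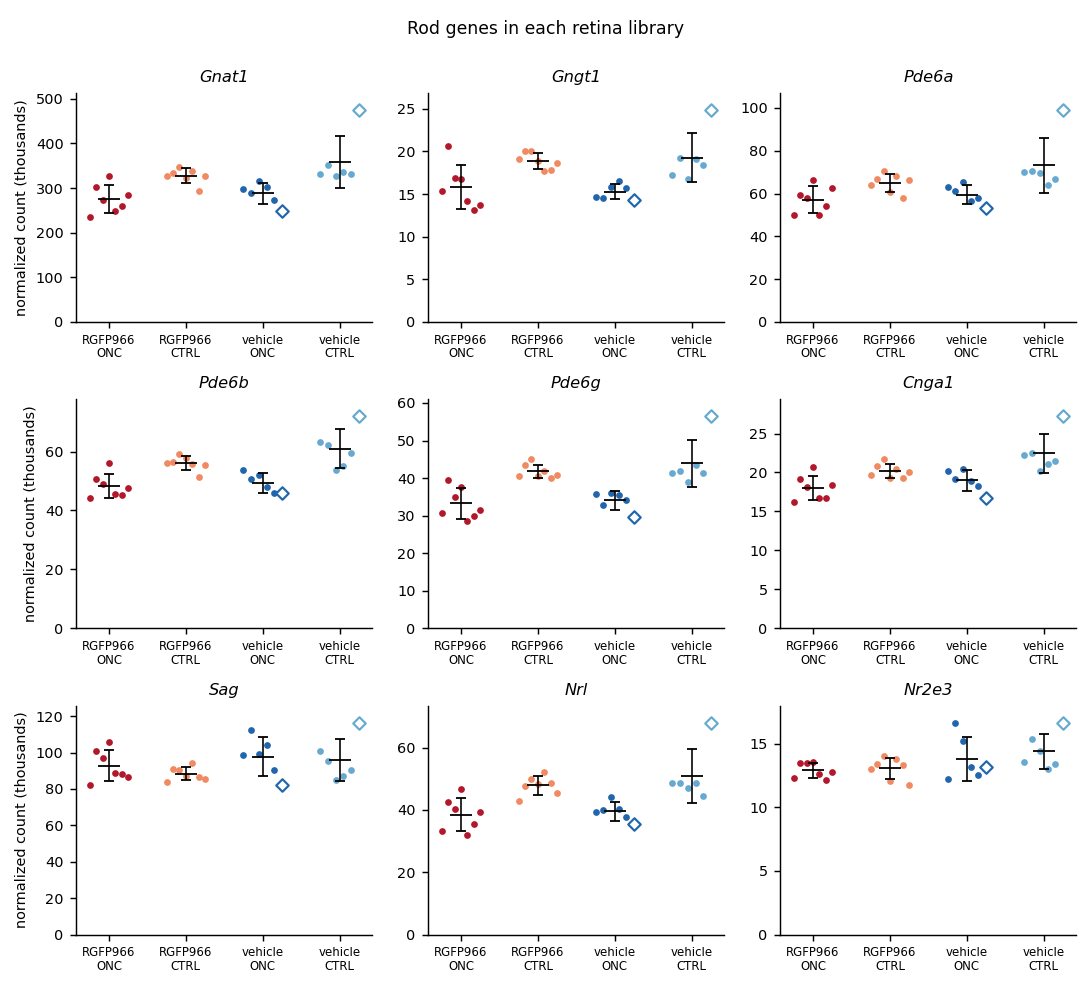
Normalized counts, in units of 1000, of the 9 rod genes in each of the 26 libraries, by group. Bars give the mean and SD, and open diamonds mark both eyes of vehicle male D. Crushed retinas sit lower than uncrushed retinas for Pde6g in both drug groups, with no overlap, while Sag and Nr2e3 overlap throughout.

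Gnat1 encodes the alpha subunit of rod transducin, which binds GTP and switches on PDE6. Its lowest, median and highest normalized counts were 235546, 274169 and 326223 in RGFP966 ONC retinas, against 293825, 327746 and 348042 in RGFP966 CTRL retinas. Among vehicle mice they were 248413, 293333 and 316761 in ONC retinas, against 327130, 334128 and 474826 in CTRL retinas. The crushed and uncrushed groups overlapped in RGFP966 mice and did not in vehicle mice. The nearest vehicle values, 316761 and 327130, were both from male A, so that separation did not rest on male D. Every vehicle CTRL retina but male D lay at or below 350710. The log2 change was -0.25 ± 0.10 in RGFP966 mice (SE; limma, adjusted p = 0.16) and -0.31 ± 0.10 in vehicle mice (adjusted p = 0.087), and neither passed.

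Gngt1 encodes the gamma subunit that anchors rod transducin to the disc membrane. It ranged from 13095 to 20685 normalized counts in RGFP966 ONC retinas (median 15399), against 17747 to 20062 in RGFP966 CTRL retinas (median 18892). Vehicle ONC retinas ranged from 14277 to 16584 (median 15195), against 16768 to 24853 in vehicle CTRL retinas (median 18793). A single crushed retina, RGFP966 ONC female B, was above every RGFP966 CTRL retina, and the 6 others were below all of them. The log2 change was -0.27 ± 0.08 in RGFP966 mice (adjusted p = 0.065 by limma) and -0.32 ± 0.09 in vehicle mice (adjusted p = 0.030), where Gngt1 fell. Without RGFP966 ONC female B, Gngt1 also passed in RGFP966 mice, at -0.34 (adjusted p = 0.0079). In vehicle mice it no longer passed without vehicle ONC female A, female C or male D, or vehicle CTRL male B or male D (adjusted p from 0.0545 to 0.0939).

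In neither drug group did all 3 subunit genes of the rod phosphodiesterase pass. Pde6g encodes the inhibitory gamma subunit that transducin displaces. It ranged from 28616 to 39562 normalized counts in RGFP966 ONC retinas (median 31563), against 39942 to 45059 in RGFP966 CTRL retinas (median 40807). In vehicle ONC retinas it ranged from 29673 to 36158 (median 34843), against 39023 to 56473 in vehicle CTRL retinas (median 41642). No crushed retina reached any uncrushed one in either drug group, and Pde6g was the only one of the 9 with that separation in both. The gap was narrow in RGFP966 mice (39562 against 39942). The share of all genes separated in both drug groups was not counted. It fell by 20.8% in RGFP966 mice (log2 change -0.34 ± 0.08, adjusted p = 0.0083 by limma) and by 22.1% in vehicle mice (-0.36 ± 0.09, adjusted p = 0.0086).

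Pde6b, the catalytic beta subunit, had 44125, 47523 and 55981 as its lowest, median and highest normalized counts in RGFP966 ONC retinas, against 51516, 56245 and 59231 in RGFP966 CTRL retinas. Vehicle ONC retinas had 45762, 49236 and 53638, against 53870, 60793 and 71983 in vehicle CTRL retinas. The vehicle groups did not overlap, and the RGFP966 groups overlapped through 1 crushed retina, as 6 of 7 lay below all uncrushed ones. Pde6b fell in vehicle mice (log2 change -0.30 ± 0.07, adjusted p = 0.0088 by limma), while in RGFP966 mice the change was -0.22 ± 0.07 (adjusted p = 0.056), or -0.26 (adjusted p = 0.012) without RGFP966 ONC male A. Pde6a, the catalytic alpha subunit, ranged from 49862 to 66157 normalized counts in RGFP966 ONC retinas, against 57908 to 70307 in RGFP966 CTRL retinas. It ranged from 53067 to 65260.0 in vehicle ONC retinas, against 63900 to 99019 in vehicle CTRL retinas. Both pairs of groups overlapped, and Pde6a passed in neither, with log2 changes of -0.19 ± 0.09 in RGFP966 mice (adjusted p = 0.29) and -0.29 ± 0.09 in vehicle mice (adjusted p = 0.070). Without vehicle CTRL male B it passed in vehicle mice, at -0.32 (adjusted p = 0.046).

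Cnga1 encodes the alpha subunit of the rod cyclic GMP-gated channel, which carries the dark current. It ranged from 16226 to 20668 normalized counts in RGFP966 ONC retinas (median 18137), against 19266 to 21727 in RGFP966 CTRL retinas (median 20056). Vehicle mice had 16773 to 20428 in ONC retinas (median 19079), against 20224 to 27222 in CTRL retinas (median 21840.2). The groups overlapped in both drug groups. Cnga1 fell in vehicle mice by 15.3% (log2 change -0.24 ± 0.07, adjusted p = 0.042 by limma), and the change in RGFP966 mice was -0.17 ± 0.07 (adjusted p = 0.17). In vehicle mice the call of Cnga1 ended when any 1 of 11 libraries was left out (adjusted p from 0.0507 to 0.121), namely vehicle ONC female C, male B, male C or male D, vehicle CTRL female A, female C or male D, RGFP966 ONC female C or male D, or RGFP966 CTRL female B or male D.

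Sag encodes rod arrestin, which binds the activated pigment and moves between the compartments of the cell with light. Its lowest, median and highest normalized counts were 82351, 88854 and 106030 in RGFP966 ONC retinas, against 83639, 87179.8 and 94052 in RGFP966 CTRL retinas. In vehicle ONC retinas they were 82040.2, 99029.8 and 112283, against 84824, 92922 and 116537 in vehicle CTRL retinas. The groups overlapped almost wholly. The log2 change was 0.07 (95% interval -0.09 to 0.23, adjusted p = 0.78 by limma) in RGFP966 mice and 0.03 (-0.14 to 0.20, adjusted p = 0.92) in vehicle mice.

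Of the 2 transcription factors Nrl passed and Nr2e3 did not, and the difference between them was not tested. Nrl ranged from 31836 to 46678 normalized counts in RGFP966 ONC retinas (median 39442), against 42984 to 52022 in RGFP966 CTRL retinas (median 48293). Vehicle ONC retinas ranged from 35553 to 44225 (median 39607), against 44307 to 68019.6 in vehicle CTRL retinas (median 48605). The vehicle groups were separated by a narrow gap, and 6 of 7 RGFP966 ONC retinas lay below all RGFP966 CTRL retinas. Nrl fell in RGFP966 mice (log2 change -0.32 ± 0.09, adjusted p = 0.028 by limma) and in vehicle mice (-0.35 ± 0.10, adjusted p = 0.024). The call in vehicle mice ended without vehicle ONC male C or male D, or vehicle CTRL male D (adjusted p from 0.0584 to 0.0662). That in RGFP966 mice ended without any 1 of 7 RGFP966 libraries, ONC female A, male B or male C, or CTRL female B, female C, male B or male C (adjusted p from 0.05004 to 0.0767). Nr2e3, which Nrl activates, ranged from 12170.5 to 13594 normalized counts in RGFP966 ONC retinas, against 11733 to 14032.5 in RGFP966 CTRL retinas. It ranged from 12227 to 16660.0 in vehicle ONC retinas, against 13047 to 16674 in vehicle CTRL retinas. Its log2 change was -0.01 (95% interval -0.15 to 0.12, adjusted p = 0.96) in RGFP966 mice and -0.06 (-0.21 to 0.09, adjusted p = 0.75) in vehicle mice.

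**Figure D2:**
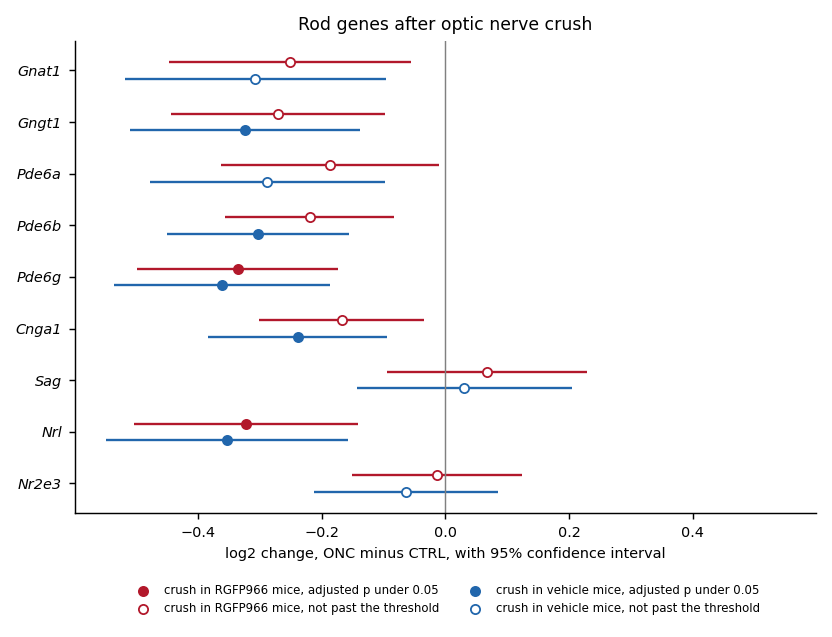
Log2 change after crush (ONC minus CTRL) of the 9 rod genes in RGFP966 and vehicle mice, with 95% confidence intervals from limma. Filled points passed an adjusted p of 0.05. On the deposited scale the 7 genes other than Sag and Nr2e3 have unadjusted intervals below 0 in both drug groups. Of all 15773 genes, 2381 in RGFP966 mice and 2556 in vehicle mice had an unadjusted p under 0.05 by limma, in either direction. Under quantile normalization, which gives every library the same set of values, none of the 9 passed, and Gnat1 and Pde6a were positive.

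Groups that did not overlap, with every crushed retina below every uncrushed one, were found for 1 of the 9 genes in RGFP966 mice (Pde6g) and for 5 in vehicle mice (Gnat1, Gngt1, Pde6b, Pde6g and Nrl). Over all genes tested the share was 0.533% in RGFP966 mice and 0.913% in vehicle mice. Both eyes came from the same animal, so the change can also be read within each mouse. On the deposited scale Pde6b, Pde6g and Nrl were lower in the crushed eye in 7 of 7 RGFP966 mice and 6 of 6 vehicle mice. Gnat1, Gngt1 and Pde6a were lower in 6 of 7 and 6 of 6, and Cnga1 in 6 of 7 and 5 of 6. Sag was lower in 2 of 7 RGFP966 mice and 3 of 6 vehicle mice, and Nr2e3 in 4 of 7 and 3 of 6. The share of all genes lower in as many mice was not counted, so these counts are a description only. They were not taken under quantile normalization, where the changes of Gnat1 and Pde6a were positive.

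The mice differed in how far the rod genes moved. On the deposited scale the median log2 change of the 9 genes was below 0 in 12 of 13 mice. The exception was RGFP966 male A with 0.02, where 4 of the 9 were lower in the crushed eye. In the other mice between 6 and 9 of the genes were lower. RGFP966 male A was also the only mouse whose library total was higher in the crushed eye (19455134 against 19111980 normalized counts). The 9 genes' share of the total was lower in the crushed eye of all mice but RGFP966 male A and vehicle male A. The part of the totals in these directions was not tested. Vehicle male D had by far the lowest median, -0.80, with Nrl at -0.94 and Sag at -0.51. In the other 5 vehicle mice the median lay between -0.28 and -0.05, and in the 7 RGFP966 mice between -0.35 and 0.02. Without both eyes of vehicle male D, Pde6b (log2 change -0.23, adjusted p = 0.043 by limma) and Pde6g (-0.25, adjusted p = 0.0498) still passed in vehicle mice, while Nrl (-0.24, adjusted p = 0.13), Gngt1 (-0.23, 0.14) and Cnga1 (-0.15, 0.22) did not. In that fit 5 of the 9 passed in RGFP966 mice, as Gnat1 (adjusted p = 0.036), Gngt1 (0.020) and Pde6b (0.017) joined Pde6g and Nrl. Of all 15773 genes, 1.93% fell in RGFP966 mice and 1.17% in vehicle mice without that mouse. The counts of 2 and 5 thus changed places with 1 mouse left out.

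**Figure D3:**
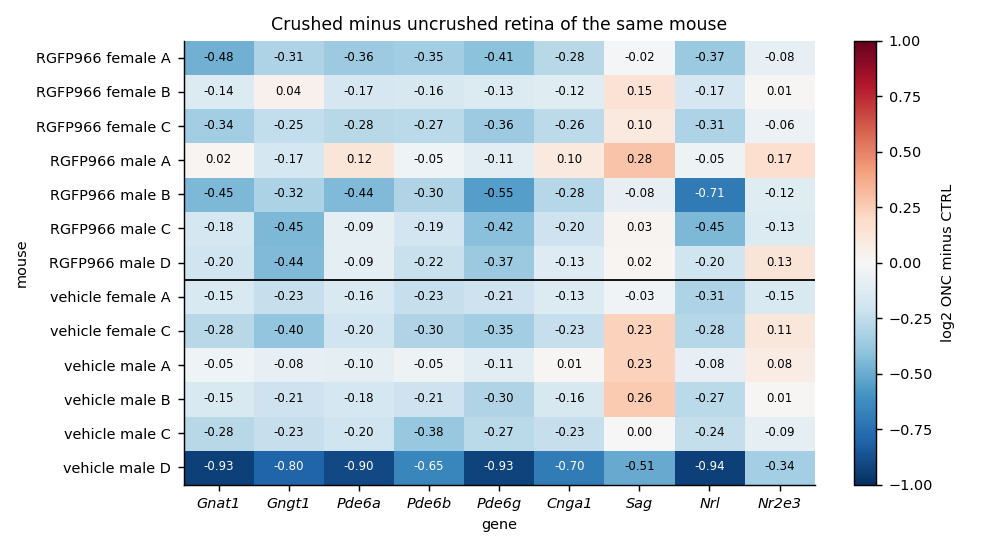
Log2 difference between the crushed and the uncrushed retina of each mouse (rows) for the 9 rod genes (columns), RGFP966 mice above the line and vehicle mice below it. Vehicle male D is the darkest band, with values from -0.94 to -0.34, and the Sag column has positive values in 5 of 7 RGFP966 and 3 of 6 vehicle mice.

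A ratio of a pair of genes in the same library is not moved by a factor applied to the whole library. The ratios below were chosen after their values had been seen and are given as a description, with no test. Sag stood at 30.5, 33.9 and 35.8 (lowest, median, highest) per 100 normalized counts of Gnat1 in RGFP966 ONC retinas, against 25.5, 27.1 and 29.4 in RGFP966 CTRL retinas. In vehicle ONC retinas it stood at 31.4, 33.1 and 38.8, against 24.5, 26.6 and 30.5 in vehicle CTRL retinas. The groups did not overlap in either drug group, and the ratio was higher in the crushed eye of 7 of 7 RGFP966 and 6 of 6 vehicle mice, vehicle male D included. Such a separation from Gnat1 in the same direction held for 4.35% of 15772 genes in RGFP966 mice and 8.65% in vehicle mice.

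Within the factors, Nr2e3 stood at 29.1, 33.4 and 39.7 per 100 normalized counts of Nrl in RGFP966 ONC retinas, against 25.0, 27.6 and 30.3 in RGFP966 CTRL retinas. In vehicle ONC retinas it stood at 31.1, 33.9 and 41.7, against 24.5, 29.1 and 31.7 in vehicle CTRL retinas. These groups overlapped at their edges, but the ratio was higher in the crushed eye of all 7 RGFP966 and all 6 vehicle mice. Set against Gnat1, Nr2e3 was also higher in the crushed eye of all 7 and all 6. The share of all genes higher in as many mice against Nrl or Gnat1 was not counted. The other 6 genes overlapped between crushed and uncrushed retinas per 100 Gnat1 in both drug groups. Their ratio was higher in the crushed eye of 6 of 7 RGFP966 and 5 of 6 vehicle mice for Cnga1, 6 and 3 for Pde6a, 4 and 2 for Gngt1, 3 and 1 for Pde6b, 3 and 1 for Nrl, and 2 and 2 for Pde6g. As a description, these ratios moved unequally between genes, and they do not show which gene of a pair changed.

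**Figure D4:**
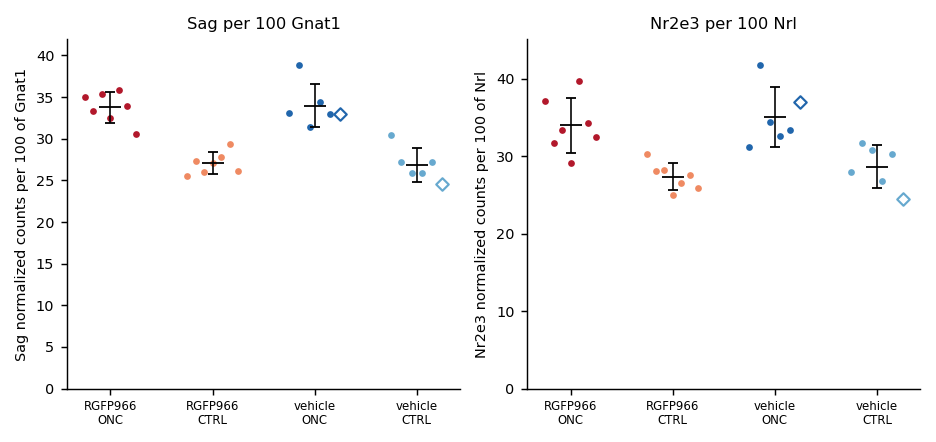
Normalized counts of Sag per 100 of Gnat1 and of Nr2e3 per 100 of Nrl in each library, by group, with mean and SD. Open diamonds mark vehicle male D. Crushed retinas lie above uncrushed retinas without overlap for Sag to Gnat1 (30.5 to 35.8 against 25.5 to 29.4 in RGFP966 mice), and overlap slightly for Nr2e3 to Nrl.

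The regulatory sequence of 6 of the 9 members was read from RefSeq (GRCm38.p6): Gngt1, Pde6b, Cnga1, Sag, Nrl and Nr2e3. No upstream sequence was read for Gnat1, Pde6a or Pde6g, so nothing is said of their motifs. Letters searched on both strands in the 250 bases before the annotated start were TAATCC, the core recognised by the photoreceptor homeodomain factor CRX, and TGCTGA, a half-site of the element bound by NRL. No match of one motif overlapped a match of the other in these windows. Of 27025 promoters of that length, 6.38% held the CRX core and 15.8% the NRL half-site. The CRX core was found in Gngt1, Cnga1 and Sag, the NRL half-site in Pde6b and Sag, and neither in Nrl or Nr2e3. The upstream windows of Pde6b (chr5:108388123-108388372, plus strand) and Sag (chr1:87803430-87803679, plus strand) are shown because Pde6b was lower in the crushed eye of every mouse and Sag was not, and because they are the 2 windows that overlap no GENCODE exon. Of the 250 bases, GENCODE exons covered 250 in Cnga1 and Nrl, 216 in Gngt1 and 38 in Nr2e3, so those windows hold transcribed sequence too. Both are written 5′ to 3′, with motif matches in capitals.
Pde6b: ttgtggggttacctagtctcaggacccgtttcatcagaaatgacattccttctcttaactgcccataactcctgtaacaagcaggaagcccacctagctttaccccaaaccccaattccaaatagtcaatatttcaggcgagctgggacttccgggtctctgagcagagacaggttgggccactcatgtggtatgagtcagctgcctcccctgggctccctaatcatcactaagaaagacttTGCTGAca
Sag: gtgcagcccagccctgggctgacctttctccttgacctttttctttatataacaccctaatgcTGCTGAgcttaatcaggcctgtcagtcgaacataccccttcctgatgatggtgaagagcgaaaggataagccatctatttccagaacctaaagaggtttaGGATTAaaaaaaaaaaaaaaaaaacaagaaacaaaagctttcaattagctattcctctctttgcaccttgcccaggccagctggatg
In Pde6b the half-site TGCTGA lies 8 to 3 bases before the start. That start is the one of RefSeq, and the bases that follow it were not found in a GENCODE transcript of Pde6b. In Sag the same half-site lies 187 to 182 bases before the start, and the CRX core, read here as GGATTA from the opposite strand, 87 to 82 bases before it. A match is a description of the letters, and no binding was measured.

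RGFP966 was set against vehicle to ask whether the drug alters the retina. These comparisons use the same libraries as those above. None of the 9 rod genes passed in crushed or in uncrushed retinas. In crushed retinas the log2 differences, RGFP966 ONC minus vehicle ONC, ran from -0.10 for Nr2e3 (95% interval -0.24 to 0.05) to 0.03 for Gngt1 (-0.15 to 0.21). The widest interval was that of Gnat1, -0.27 to 0.14. No gene in the whole table passed by limma in this comparison (0% called), with 403 of 15773 and 0 of the 9 at an unadjusted p under 0.05. The adjusted p of each of the 9 was 0.99976 by limma.

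In uncrushed retinas all 9 genes were estimated lower with the drug on the deposited scale, with log2 differences (RGFP966 CTRL minus vehicle CTRL) from -0.16 for Pde6a (95% interval -0.35 to 0.02) to -0.02 for Gngt1 (-0.20 to 0.16). Again 0% of genes passed, and the lowest adjusted p among the 9 was 0.91 by limma. At an unadjusted p under 0.05 stood 782 of 15773 genes and 2 of the 9, the channel gene Cnga1 (-0.15, 95% interval -0.29 to -0.01) and Nr2e3 (-0.14, -0.29 to -0.0012). The uncrushed vehicle group holds vehicle male D. Without that library Gngt1, Pde6g and Nrl turned to 0.06, 0.01 and 0.01, and Cnga1 and Nr2e3 stood at -0.09 and -0.10. Under quantile normalization Gngt1, Pde6a, Pde6g and Nrl likewise had positive differences, of 0.03, 0.01, 0.03 and 0.01, and Gngt1 stood at 0.02 after rescaling to equal totals.

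The difference between the 2 crush responses was tested directly by the drug by crush interaction. On the deposited scale the estimates were all positive, a positive value being a less negative or more positive crush change with RGFP966, and ran from 0.02 for Pde6g (95% interval -0.21 to 0.26) to 0.10 for Pde6a (-0.16 to 0.36). None passed (0% of 15773 genes, with 327 genes and 0 of the 9 at an unadjusted p under 0.05 by limma). The counts of 2 genes in RGFP966 mice and 5 in vehicle mice are therefore not shown to differ between drug groups. Without both eyes of vehicle male D the estimate was negative for 8 of the 9 genes, with Pde6g at -0.09 and Nrl at -0.09, so for those 8 genes the sign rested on that mouse. It was also negative for 3 genes after rescaling to equal totals (Pde6g -0.02, Sag -0.01, Nrl -0.01) and for 8 under quantile normalization. The sex by crush interaction gave estimates from -0.09 (Gngt1, 95% interval -0.34 to 0.15) to 0.01 (Pde6b, -0.21 to 0.23), and 0% of genes passed, with 382 genes and 0 of the 9 at an unadjusted p under 0.05 by limma.

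**Figure D5:**
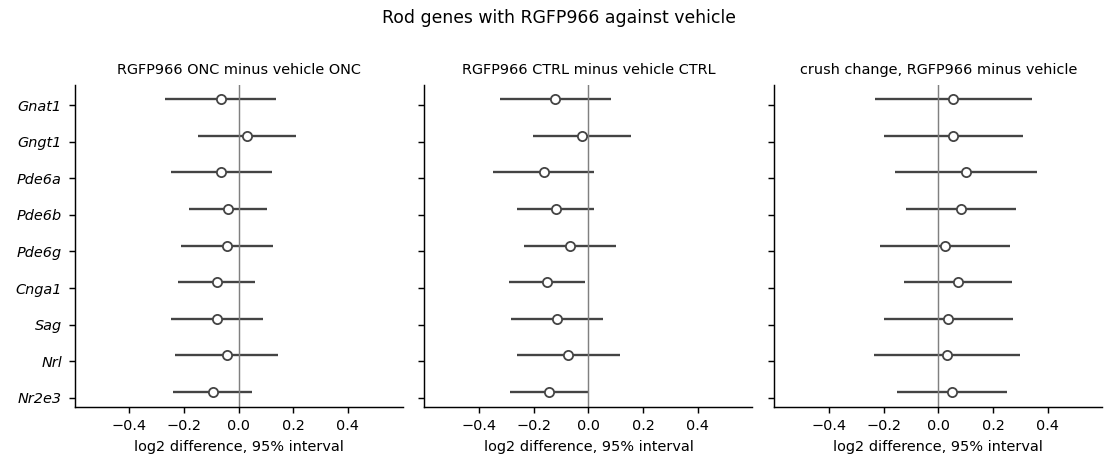
Log2 differences between RGFP966 and vehicle for the 9 rod genes in crushed eyes, in uncrushed eyes, and between the crush responses, with 95% confidence intervals from limma. None passed an adjusted p of 0.05, and the intervals reach at most 0.36 from 0 (Pde6a, interaction).

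Other genes of the rod cascade were read from lists chosen with earlier results in view. Of 16 further genes of the cascade, 1 fell in RGFP966 mice and 5 in vehicle mice, and none rose, with median log2 changes of -0.20 and -0.24. Pdc, the phosducin that binds the beta and gamma subunits of transducin, fell in both drug groups (-0.51 ± 0.12 in RGFP966 mice, adjusted p = 0.0062 by limma, and -0.58 ± 0.13 in vehicle mice, adjusted p = 0.0035). It also passed in both after rescaling to equal totals, under quantile normalization (-0.36 in RGFP966 mice, -0.33 in vehicle mice) and without both eyes of vehicle male D. In vehicle mice the others were Rgs9bp (-0.31) and Gnb5 (-0.19), parts of the complex that speeds GTP hydrolysis on transducin, the guanylate cyclase activator Guca1b (-0.27), and Unc119 (-0.27), a carrier of transducin. Without both eyes of vehicle male D the counts of the 16 were 8 in RGFP966 mice, at an unchanged median, and 1 in vehicle mice. Under either other scaling they were 1 in each, with medians of -0.08 in RGFP966 mice and -0.05 in vehicle mice under quantile normalization. Gnb1, the beta subunit that pairs with Gngt1, did not pass, at -0.23 ± 0.09 in RGFP966 mice (adjusted p = 0.22) and -0.33 ± 0.10 in vehicle mice (adjusted p = 0.056). Of 10 genes of the outer segment and the pigment cycle, 2 fell in RGFP966 mice and 4 in vehicle mice, with medians of -0.22 and -0.23. Reep6, a rod protein of membrane traffic, and the retinol dehydrogenase Rdh12 fell in both. Reep6 stood at -0.33 in RGFP966 mice and -0.32 in vehicle mice, and Rdh12 at -0.22 in RGFP966 mice and -0.27 in vehicle mice. In vehicle mice the retinoid flippase Abca4 (-0.33) and the disc rim protein Rom1 (-0.28) fell too. Of all genes tested, 129 fell in RGFP966 mice and 96 in vehicle mice with equal totals, and 241 and 247 under quantile normalization. The counts of these 10 were 1 and 0 after rescaling to equal totals, 2 and 1 under quantile normalization, and 4 and 1 without both eyes of vehicle male D (RGFP966 mice, then vehicle mice). In the last of these fits the median in RGFP966 mice was unchanged.

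Among 10 further transcription factors of photoreceptors, the orphan receptor Rorb, which acts upstream of Nrl, fell in both (log2 change -0.59 ± 0.14 in RGFP966 mice, adjusted p = 0.0104 by limma, and -0.80 ± 0.15 in vehicle mice, adjusted p = 9.7e-04). Esrrb, a nuclear receptor of rods, fell in vehicle mice (-0.63 ± 0.16, adjusted p = 0.017 by limma), also under both other scalings, though not without vehicle male D. In the fit without that mouse Esrrb passed as lower in RGFP966 mice. Crx, the homeodomain factor shared by rods and cones, was at -0.08 in both and did not pass. The median of these 10 was -0.02 in RGFP966 mice and -0.10 in vehicle mice. Rorb, which cells other than photoreceptors also express, passed in both drug groups under both other scalings and without vehicle male D. The scalings moved the median of the 10 above 0, to 0.05 in RGFP966 mice and 0.02 in vehicle mice with equal totals and to 0.04 in each under quantile normalization. Neurod1 in RGFP966 mice and Otx2 in vehicle mice then passed as higher, as did Mef2d in vehicle mice with equal totals. Of 12 cone genes, the counterparts of the rod cascade, 1 fell and 1 rose in each drug group, with medians of -0.04 in RGFP966 mice and 0.01 in vehicle mice. The retinoid receptor Rxrg fell (-0.58 in RGFP966 mice, -0.50 in vehicle mice), and the cone transducin beta subunit Gnb3, which bipolar cells express as well, rose (0.74 in RGFP966 mice, 1.02 in vehicle mice). Gnb3 passed under each scaling and without vehicle male D, while Rxrg did not pass in vehicle mice with equal totals or without that mouse. Arr3, the cone arrestin, passed as lower in both drug groups without that mouse. Gnat2, the cone counterpart of Gnat1, was at -0.08 in RGFP966 mice and -0.21 in vehicle mice and did not pass. Whether rod and cone genes differed in their response was not tested.

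Markers of the other cells a retina sample can hold were summed per library. The 7 Müller glia markers ranged from 45509 to 61318 normalized counts in RGFP966 ONC retinas, against 52420 to 62956 in RGFP966 CTRL retinas, and from 41426 to 61104 in vehicle ONC retinas, against 53333 to 65859 in vehicle CTRL retinas. These sums mostly follow Glul, the highest of the 7 (mean 39513 normalized counts). The median log2 change of the 7 was 0.29 in RGFP966 mice and 0.49 in vehicle mice. Among the 7, Gfap and Vim rose and Glul fell in both drug groups, and Slc1a3 rose in vehicle mice. Under quantile normalization Glul did not pass, at -0.15 in RGFP966 mice (adjusted p = 0.303 by limma) and -0.16 in vehicle mice (adjusted p = 0.260). The 7 microglia markers summed to 3298 to 5617 in RGFP966 ONC retinas, against 1652 to 2088 in RGFP966 CTRL retinas, and to 3574 to 6129 in vehicle ONC retinas, against 1355 to 2379 in vehicle CTRL retinas. Of 7 amacrine and horizontal cell markers Calb2 fell in both. No marker of bipolar cells (8 tested), lens (7), red blood cells (5) or pigment epithelium (6 of 7 tested) passed after crush in either drug group. Lens markers reached 62667 in a single RGFP966 CTRL library, where the group's median was 764, and the defining markers Best1, Mip and Bfsp1 were each at 0 in 1 library.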

How the data were processed

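Polyadenylated RNA of 26 mouse retina libraries was used. The authors' deposited table holds normalized counts (a signal with 35999 entries in 28 columns): per the submitters' processing notes, kallisto 0.46.1 and DESeq2 (version not given) were used with build mm10. The library kit named in the labels' protocols (NEBNext Ultra RNA) does not mark strand. Normalized counts do not give the reads behind each library, so no count test was run. A column name that occurs more than once leaves 2 columns that cannot be assigned, and these were not used here. Entries whose symbols had become dates (26, with 0.115% of the total) were left out.

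Values were taken as log2(value + 1), a scale on which the changes of low genes are understated. Genes with a mean of at least 10 were tested (15773). limma 3.58.1 (R 4.3.3), with a trended empirical Bayes prior, was fitted to the 4 drug-by-crush groups plus sex, and to 8 groups for the sex by crush interaction. Tests were two-sided, with Benjamini-Hochberg adjustment over all genes tested, a threshold of 0.05 and 95% intervals. Errors are SE for log2 changes and SD for levels. The procedure was tested on simulated data.

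The 2 eyes of a mouse share a label number and, per the labels, an animal, so they are paired. Their deviations from the group means correlated at -0.20 to 0.34 over genes (median 0.12, 13 mice). With mouse as a fixed effect (replicate block), 1 of the 9 rod genes passed in RGFP966 mice and 3 in vehicle mice, and with mouse as a random effect 2 and 5.

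The members and lists were chosen with earlier results of these data known. All 9 members are named in every comparison. From other lists up to 4 members with the smallest p are named, and every member behind a count of 5 or fewer. Gnb1, Crx and Gnat2 were named as partners of members, outside that rule. The other lists were refitted under the 2 other scalings and without vehicle male D, a choice made after seeing the data. Positions and lengths are from GENCODE vM21, promoters from RefSeq. Alternatives covered the value added, the filter, the scaling, the moderation, weights, the samples fitted, sex, the mouse and each library.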

Additional observations from a re-analysis of the deposited data

Results flagged for a closer look

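In 70 groups of values, the highest or lowest sample was compared with its nearest neighbour by Dixon's ratio, and 13 stood apart at the 95% level. Chance alone gives about 1 in 20. Of the 13, 12 came from vehicle male D. Its uncrushed retina was the highest of 6 vehicle CTRL retinas for Gnat1 (474826 normalized counts, the next being 350710), Gngt1 (24853, next 19177), Pde6a (99019, next 70484), Pde6g (56473, next 43587), Cnga1 (27222, next 22492.5) and Nrl (68019.6, next 48757). The 9 genes took 4.37% of its total, where the next retina had 3.68%.

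Within mice, vehicle male D had the lowest log2 difference between the crushed and the uncrushed eye for Gnat1 (-0.93, next -0.28), Pde6a (-0.90, next -0.20), Pde6g (-0.93, next -0.35), Cnga1 (-0.70, next -0.23) and Nrl (-0.94, next -0.31). Among RGFP966 mice, male A had the highest difference for Cnga1, 0.10, where the next was -0.12. On the deposited scale all 6 vehicle mice remained lower in the crushed eye for Gnat1, Gngt1, Pde6a, Pde6b, Pde6g and Nrl. The direction within mice on that scale thus did not rest on male D. Its total was also the highest of the 26 libraries, at 21852187 normalized counts, and its part in these values was not tested.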

How the results depend on the processing

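After crush 2 of the 9 rod genes passed in RGFP966 mice and 5 in vehicle mice as reported. With no filter on low values the counts were 1 in RGFP966 mice and 2 in vehicle mice, with array weights 5 and 3, with mouse as a fixed effect (replicate block) 1 and 3, and with quantile normalization 0 and 0, in that order of drug groups. Rescaling libraries to equal totals gave 2 in vehicle mice, where 96 of all genes tested fell. Fitting only the groups compared gave 0 in vehicle mice. In RGFP966 mice the fit to only the groups compared added Gngt1 and ended no call. Without both eyes of vehicle male D, chosen after seeing the data, they were 5 in RGFP966 mice and 2 in vehicle mice. The calls added there in RGFP966 mice (Gnat1, Gngt1 and Pde6b) came with unchanged log2 changes. Leaving out each library in turn gave 1 to 4 in RGFP966 mice and 2 to 5 in vehicle mice. The vehicle count was 2 without the ONC or the CTRL retina of male D, and 3 without vehicle ONC female C or male C. The RGFP966 count was 4 without vehicle CTRL male D, and 1 without RGFP966 ONC female A, male B or male C, or RGFP966 CTRL female B, female C, male B or male C, each of which ended the call of Nrl. Pde6g passed in both drug groups with any 1 library left out, as did Pde6b in vehicle mice. Cnga1 passed in vehicle mice in 15 of 26 such fits, Gngt1 in 21 and Nrl in 23. The other 4 comparisons gave 0 of the 9 under every alternative run.

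No called change reversed. Equal totals moved the median of all genes by 0.11 in vehicle mice. Relative to it the 9 genes' median lay at -0.29 both as reported and after rescaling. That equality is built in, since a factor per library shifts the log2 values of all genes nearly alike. Under quantile normalization the 9 genes' median lay at 0.0036 relative to that of all genes. Quantile normalization gives every library the same set of values, and the 9 genes rank between 3 and 112 by mean among those tested. Beyond these constructions the cause was not tested. Of all calls after crush, 85.4% were higher in RGFP966 mice and 91.1% in vehicle mice under equal totals, against 71.5% and 69.1% as reported. The group-only fit could not be made for either interaction, the fit without sex for the sex interaction, nor the fixed mouse effect between mice. Precision is limited by 7 RGFP966 and 6 vehicle mice.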

Other observations

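The genes whose pattern was most like the mean of the 9 rod genes were found from residuals, after removing group and sex, over 26 libraries that share a normalization. They were Unc119 (Pearson r = 0.94), Guca1b (0.94), Adipor1 (0.93), Rom1 (0.93), Cdhr1 (0.93), Ap2a2 (0.92), Pcbp2 (0.92) and Elovl4 (0.92). Without vehicle CTRL male D their r lay between 0.87 and 0.91. Unc119, Guca1b and Rom1 also belong to the rod lists above. Of the 8, Unc119, Guca1b, Rom1 and Adipor1 fell after crush in vehicle mice (log2 changes -0.27, -0.27, -0.28 and -0.27 by limma), and none passed in RGFP966 mice. After rescaling to equal totals and under quantile normalization none of the 8 passed in either drug group, and Unc119 and Rom1 then stood at 0.01 in vehicle mice under quantile normalization. Without both eyes of vehicle male D, Unc119, Guca1b and Rom1 passed in RGFP966 mice (adjusted p = 0.027, 0.025 and 0.011 by limma). Their log2 changes there were the same as in the full fit (-0.20, -0.21 and -0.25). None of the 8 passed in vehicle mice without that mouse (adjusted p from 0.095 for Unc119 upwards, limma).

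Among the members, each set against the mean of the other 8, Gnat1 (r = 0.96), Cnga1 (0.95) and Nrl (0.94) followed the rest most closely. Gngt1 (0.68) and Nr2e3 (0.56) followed it least, and without vehicle CTRL male D these were 0.52 and 0.42. Sag, which passed in neither crush comparison, followed them from library to library within groups (r = 0.85, or 0.78 without that library). These values describe libraries that share depth and scaling, and no p-value is given.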
